A study of Mus musculus with 6 samples.

Results

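The core pluripotency genes Pou5f1, Nanog, Sox2, Sall4, Esrrb, Zfp42, Utf1, Dppa4, Dppa5a and Lin28a were followed in mouse cells sorted as endoderm, before and after 6 passages on mesenchyme. All 10 were measured, among 7774 named genes in all, by 17 of the 11097 probes in the deposited values of a 1-colour Illumina bead array. Every deposited probe that the platform annotation assigns to any of the 10 symbols was taken, and none was filtered out here. Whether probes of these genes were left out before deposition is not known. Dppa4 had 3 probes, Pou5f1, Sox2, Sall4, Dppa5a and Lin28a had 2 each, and the other 4 genes had 1. All cells came from R1 mouse embryonic stem cells that carry a Sox17-GFP construct, a fluorescent reporter of an endoderm transcription factor. They had been differentiated with Activin A and Wnt3A for 6 days and collected by flow sorting for the reporter; the extraction protocol of every sample also names sorted reporter-positive cells. The group called P0 was unpassaged and kept on gelatin, and the other groups were grown for 6 passages (P6) on mouse mesenchyme 1 or on mouse mesenchyme 2. The labels do not state the tissues of origin of the mesenchymes. In every comparison with P0, passaging and growth on mesenchyme cannot be told apart. Each group had 2 arrays, described as technical duplicates, so the p-values below measure the spread between arrays and not between cultures.

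As background, Pou5f1 (OCT4), Sox2 and Nanog are transcription factors that hold embryonic stem cells in the undifferentiated state. OCT4 and SOX2 bind DNA side by side at joint octamer and SOX elements, and with NANOG they act on each other's genes and on a wider set of stem cell genes. Sall4, Esrrb and Zfp42 encode further nuclear factors of this network, Utf1 and Dppa4 encode chromatin-bound proteins, and Dppa5a and Lin28a encode RNA-binding proteins. On differentiation to endoderm these genes are usually shut down, some later than others. In the mouse, Sall4 is also used by extraembryonic endoderm.

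The deposited values are normalized intensities on a linear scale, with array medians from 127.6 to 135.5. Log2 intensities of duplicate arrays correlated across probes at 0.9934 to 0.9939, and those of arrays from different groups at 0.8748 to 0.9596. Levels of different probes were not compared, since probes differ in brightness. Differences are in log2 intensity ± the standard error of the limma fit, with 95% intervals from the same fit. A probe was called when its limma p-value, adjusted over all 11097 probes, was under 0.05 and the difference was at least 2-fold. In these bulk samples, fewer cells of a type and less RNA per cell cannot be told apart.

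The labelled cell type was checked against endoderm markers, of which 8 of 17 were measured, each by its brightest probe. On mesenchyme 1, 1 was called higher and 3 lower than in P0, and on mesenchyme 2, 4 higher and 1 lower. Of all named genes counted in this way, 2.59% were higher and 2.89% lower on mesenchyme 1, and 10.3% and 8.35% on mesenchyme 2. Sox17 stood at 96.5 in P0, 81.8 on mesenchyme 1 and 701 on mesenchyme 2 (geometric means of 2 arrays). On mesenchyme 2 it rose by 2.86 ± 0.102 relative to P0 (limma, adjusted p = 5.03e-06), and on mesenchyme 1 it differed from P0 by -0.24 ± 0.102 (adjusted p = 0.0965). Gata6, an endoderm factor, was higher in both passaged groups, by 1.13 ± 0.121 and 3.40 ± 0.121. Gata4 stood at 11.4, 10.4 and 42.5, the last called higher than in P0. Gata6 and Gata4 are also on the list of extraembryonic endoderm markers given below and are counted in both lists. The 5th percentile of mean intensity over all probes was 20.2. Readings under it are not shown to be above background, so the size of a difference against them is uncertain. Such readings occur for Gata4 here and for Rex2, Jarid2, Fgf4, Lifr, Myc, Pou3f1, Gata2, Ddx4, Pabpc1, Spin1 and Glud1 below. On mesenchyme 1 the factor Foxa1 and the epithelial keratins Krt18 and Krt8 were lower than in P0, at -1.32 ± 0.112, -1.65 ± 0.0974 and -1.46 ± 0.0877. On mesenchyme 2 Krt18 was called higher than in P0 (2221 against 965), while Eomes, a T-box factor of early endoderm and mesoderm, was lower, at -1.15 ± 0.109. Cdh1, the gene of E-cadherin, was not called in either group, at 0.27 ± 0.103 and 0.11 ± 0.103. Foxa2, Cxcr4 and Epcam were on the list but had no probe under those symbols in the values used. The word endoderm below follows the labels.

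On mesenchyme 2, 8 of the 17 pluripotency probes were called lower than in P0 and none was called higher. The 8 probes belong to Pou5f1, Utf1, Zfp42, Dppa4 and Sall4. Over all probes 8.65% were called lower and 9.66% higher in this comparison. On mesenchyme 1 none of the 17 was called lower than in P0, and 1, a probe of Sox2, was called higher; over all probes 2.75% were called lower and 3.27% higher. Against mesenchyme 1, 7 of the 17 were called lower on mesenchyme 2, where 12.3% of all probes were called lower and 13.5% higher. The median difference of the 17 probes was 0.01 on mesenchyme 1 and -0.93 on mesenchyme 2, both against P0, beside medians of -0.01 and 0.01 over all probes. Because both comparisons use the same P0 arrays, they are not independent. Without the 2-fold limit, 13 of 17 probes were lower on mesenchyme 2 than in P0 at an adjusted p under 0.05 (30.7% of all probes) and none was higher, while 6 of 17 differed on mesenchyme 1, 3 in each direction (46.1% of all probes in either direction). On the same terms 12 of 17 were lower on mesenchyme 2 than on mesenchyme 1 (34.4% of all probes).

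**Figure D1:**
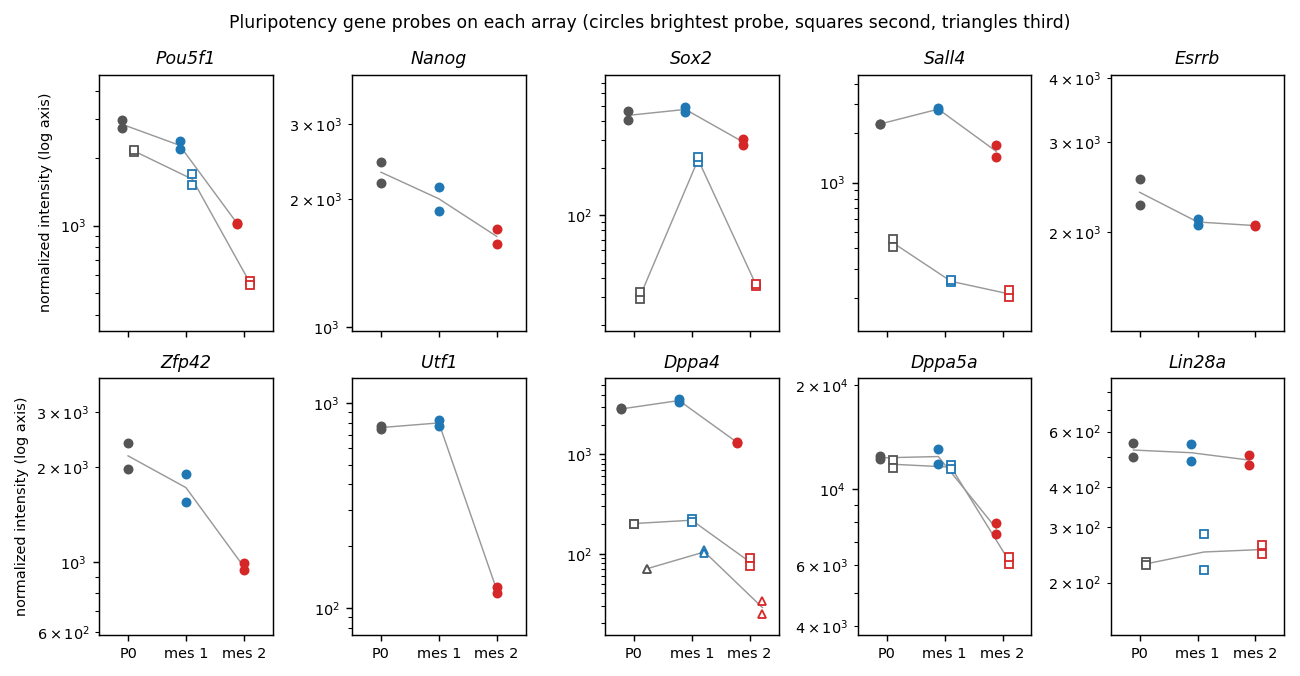
Normalized intensity (log axis, arbitrary units) of every probe of the 10 genes on each of the 6 arrays, by group; points are arrays, lines join the geometric means of the groups, and filled circles, open squares and open triangles are a gene's probes in order of brightness. Pou5f1, Utf1, Zfp42 and Dppa4 are low on both mesenchyme 2 arrays, Esrrb and Lin28a lie close together in all groups, and the dimmer Sox2 probe is high on mesenchyme 1 alone.

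Promoter sequences of the genes were taken from RefSeq, on mouse build GRCm38.p6, as windows from 250 bases before to 50 bases after each annotated start. The table held 10 windows for 7 of the genes. Both strands were searched for the octamer ATTTGCAT bound by OCT4, its core TTTGCAT (contained in the octamer), that core with ACAA after 1 further base as a joint OCT and SOX element, the SOX motif AACAATG and the ESRRB motif AAGGTCA. These motifs are textbook elements, picked with the windows in view. The 3 genes with the octamer core in a window were Nanog, Sox2 and Zfp42. A window of each is printed because their calls on mesenchyme 2 against P0, given below, differed. Zfp42 was called lower, while Nanog and both Sox2 probes were not called. The Nanog window (chr6:122707239-122707538, plus strand) holds the joint element from 75 bases before the start, in capitals. That of Sox2 (chr3:34649745-34650044, plus strand) holds the octamer core on the opposite strand, 99 bases before the start. In the Zfp42 window (chr8:43306960-43307259, minus strand) lies the whole octamer, 186 bases before the start.
Nanog: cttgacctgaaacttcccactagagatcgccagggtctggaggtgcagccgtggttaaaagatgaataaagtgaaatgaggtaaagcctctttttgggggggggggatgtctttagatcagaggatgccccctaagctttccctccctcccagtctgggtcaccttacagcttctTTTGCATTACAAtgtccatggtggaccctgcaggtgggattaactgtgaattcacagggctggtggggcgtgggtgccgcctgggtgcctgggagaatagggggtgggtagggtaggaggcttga
Sox2: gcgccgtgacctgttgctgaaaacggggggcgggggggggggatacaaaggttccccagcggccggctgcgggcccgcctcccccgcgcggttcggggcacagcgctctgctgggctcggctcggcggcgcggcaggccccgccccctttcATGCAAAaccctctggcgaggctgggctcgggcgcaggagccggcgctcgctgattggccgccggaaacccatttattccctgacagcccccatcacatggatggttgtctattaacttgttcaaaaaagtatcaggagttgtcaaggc
Zfp42: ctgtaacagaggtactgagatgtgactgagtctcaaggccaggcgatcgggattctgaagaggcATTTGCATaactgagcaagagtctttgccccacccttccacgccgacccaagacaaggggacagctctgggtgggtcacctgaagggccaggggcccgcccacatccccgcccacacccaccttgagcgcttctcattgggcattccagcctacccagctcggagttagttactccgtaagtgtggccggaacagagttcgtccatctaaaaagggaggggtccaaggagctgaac

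Of 32841 mouse promoter windows of the same length, 4.63% hold the octamer core, 1.74% the whole octamer and 0.0365%, or 12 windows, the joint element; both Nanog windows, which overlap, are among the 12. The SOX motif is in 3.78% of windows, including a window at a second Pou5f1 start, and the ESRRB motif is in 4.72% and in none of the 10. No motif was found in the windows of Utf1, Lin28a and Esrrb or in that at the other Pou5f1 start. A match is a description of the letters and not evidence of binding, and no binding was measured here.

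Pou5f1, the gene of OCT4, was measured by 2 probes that moved alike. The brighter probe read 2947 and 2723 in P0, 2371 and 2192 on mesenchyme 1, and 1022 and 1014 on mesenchyme 2. Its 3 groups did not overlap, and their order was P0, mesenchyme 1, mesenchyme 2 from high to low. It fell on mesenchyme 2 by 1.48 ± 0.0952 relative to P0 (2.78-fold, adjusted p = 3.82e-05) and by 1.16 ± 0.0952 relative to mesenchyme 1 (2.24-fold, adjusted p = 6.22e-05). The second probe read 2119 and 2172, then 1700 and 1524, then 564 and 543 in the same order of groups. On mesenchyme 2 it fell by 1.96 ± 0.0965 relative to P0 (3.88-fold, adjusted p = 1.46e-05). Between mesenchyme 1 and P0 the probes differed by -0.31 ± 0.0952 and -0.41 ± 0.0965 (adjusted p = 0.0342 and 0.0137), less than the required 2-fold. Pou5f1, Nanog and Dppa5a have pseudogene copies in the mouse genome, and whether the probes also hybridise to transcripts of such copies was not tested.

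Nanog, a homeodomain factor, was not called in any comparison. Its intensity was 2180 and 2447 in P0, 2136 and 1873 on mesenchyme 1, and 1700 and 1568 on mesenchyme 2. Both mesenchyme 2 arrays lay below all others, and the other groups did not overlap by a narrow margin. Relative to P0 the difference on mesenchyme 2 was -0.50 ± 0.114 (95% interval -0.77 to -0.23, adjusted p = 0.00786), short of the 2-fold limit. Mesenchyme 1 differed from P0 by -0.21 ± 0.114 (interval -0.48 to 0.06, adjusted p = 0.175) and mesenchyme 2 from mesenchyme 1 by -0.29 ± 0.114 (adjusted p = 0.0543). On mesenchyme 2 against P0, Nanog, with the joint element in its window, was 1.41-fold lower and Zfp42, with an octamer, 2.25-fold lower. Sox2, with the octamer core, was 1.48-fold lower by its brighter probe. Of the genes with no motif in a window, Utf1 was 6.19-fold lower, Esrrb 1.16-fold and Lin28a, by its brighter probe, 1.08-fold. Whether the motifs bear on these differences was not tested.

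Sox2, the partner factor of OCT4, gave different pictures with its 2 probes. The brighter probe read 465 and 403 in P0, 453 and 493 on mesenchyme 1, and 280 and 306 on mesenchyme 2. P0 and mesenchyme 1 overlapped and mesenchyme 2 lay below both, by 0.56 ± 0.112 and 0.69 ± 0.112 (adjusted p = 0.0045 and 0.00146), which is under 2-fold. The dimmer probe read 29.4 and 32.2 in P0, 217 and 236 on mesenchyme 1, and 35.7 and 36.5 on mesenchyme 2. Here the arrays of mesenchyme 1 stood apart, with the probe higher by 2.88 ± 0.0981 relative to P0 (7.36-fold, adjusted p = 6.26e-05). The size depends on the low P0 readings: it was 2.37 with 16 added to every intensity and 1.77 with 50 added, still called. On mesenchyme 2 it was lower than on mesenchyme 1 by 2.65 ± 0.0981 (adjusted p = 3.98e-06) and differed from P0 by 0.23 ± 0.0981 (adjusted p = 0.0786). The call on mesenchyme 1 therefore rests on 1 of 2 probes, and the brighter one differed there by 0.13 ± 0.112 (interval -0.14 to 0.40, adjusted p = 0.386). Whether the dimmer probe reads Sox2 transcript or another RNA was not tested.

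Other genes with the pattern of the dimmer Sox2 probe were sought after its values were seen. The genes nearest to it over the 6 arrays, of 10313 named probes, were Spin1, Hspd1, Pabpc1 and Glud1, at root mean square differences of 0.219 to 0.332 in log2 intensity. In each of the 4 genes the matching probe was not the brightest. Of the 10475 probes with a symbol, 2701 are not the brightest of their gene. The chaperonin gene Hspd1 is an example: its dimmer probe went from 218 in P0 to 1183 on mesenchyme 1 (2.44 ± 0.093) and its brighter one from 4049 to 4905 (0.28 ± 0.0996). The poly(A)-binding protein gene Pabpc1 had 3 probes, which went from 14.5 to 120, from 34.5 to 94.4 (also called higher) and, for the brightest, from 3565 to 4049. Over the 2007 genes with several probes, 120 of 2701 dimmer probes (4.44%) were called higher on mesenchyme 1 than in P0 while the gene's brightest probe was not called, and 43 (1.59%) lower. On mesenchyme 2 against P0 the same counts were 56 (2.07%) and 109 (4.04%). What these probes have in common was not tested.

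Sall4, a zinc finger factor, also had probes that differed, and the platform annotation assigns them to different RefSeq transcripts of the gene. The brighter probe read 2271 and 2277 in P0, 2836 and 2755 on mesenchyme 1, and 1425 and 1683 on mesenchyme 2. Mesenchyme 1 was the highest group and mesenchyme 2 the lowest, with no overlap. The steps were 0.30 ± 0.108 from P0 to mesenchyme 1 (adjusted p = 0.0599) and -0.55 ± 0.108 from P0 to mesenchyme 2 (adjusted p = 0.00401), both under 2-fold. For the dimmer probe the readings were 456 and 405 in P0, 248 and 254 on mesenchyme 1, and 201 and 221 on mesenchyme 2. There P0 was the highest group, and the probe differed by -0.78 ± 0.104 on mesenchyme 1 (adjusted p = 0.00201) and fell on mesenchyme 2 by 1.03 ± 0.104 (2.04-fold, adjusted p = 0.000227). On mesenchyme 1 the Sall4 probes thus had opposite signs, 1.07 apart. The call on mesenchyme 2 sat at the 2-fold limit: the difference was -0.94 without P0 replicate 1, -0.96 without mesenchyme 2 replicate 1 and -0.98 with 16 added to every intensity.

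Esrrb, an orphan nuclear receptor of the self-renewal network, was not called in any comparison either. It read 2258 and 2541 in P0, 2068 and 2126 on mesenchyme 1, and 2068 and 2057 on mesenchyme 2. The passaged groups overlapped and both lay a little below P0. Mesenchyme 2 differed from P0 by -0.22 ± 0.0971 (interval -0.45 to 0.02, adjusted p = 0.092) and mesenchyme 1 by -0.19 ± 0.0971 (interval -0.42 to 0.04, adjusted p = 0.146), so falls of 2-fold lay outside both intervals.

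Zfp42, the zinc finger gene also called Rex1 and used as a marker of undifferentiated cells, read 1980 and 2393 in P0, 1560 and 1911 on mesenchyme 1, and 944 and 996 on mesenchyme 2. The mesenchyme 2 arrays lay well below the rest, and the duplicates of the other groups were wide apart. It fell on mesenchyme 2 by 1.17 ± 0.14 relative to P0 (2.25-fold, adjusted p = 0.000481). Mesenchyme 1 stood between the other groups, at -0.33 ± 0.14 from P0 (adjusted p = 0.0911), and mesenchyme 2 was 0.83 ± 0.14 below it (adjusted p = 0.00171), under the 2-fold limit.

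Utf1, which encodes a chromatin-associated factor of undifferentiated cells, had the largest fall of the 17 probes on mesenchyme 2 relative to P0. Its readings were 773 and 742 in P0, 775 and 822 on mesenchyme 1, and 127 and 118 on mesenchyme 2. P0 and mesenchyme 1 were close, and both mesenchyme 2 arrays lay far below them. On mesenchyme 2 the gene fell by 2.63 ± 0.0932 relative to P0 (6.19-fold, adjusted p = 5.03e-06) and differed by -2.71 ± 0.0932 from mesenchyme 1 (6.52-fold, adjusted p = 3.41e-06). Mesenchyme 1 and P0 differed by 0.08 ± 0.0932 (interval -0.15 to 0.30, adjusted p = 0.537).

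Dppa4, a nuclear protein gene of pluripotent cells and early germ cells, fell on mesenchyme 2 with all of its 3 probes. The brightest read 2837 and 2905 in P0, 3641 and 3341 on mesenchyme 1, and 1311 and 1341 on mesenchyme 2. It was lower on mesenchyme 2 by 1.11 ± 0.092 relative to P0 (2.17-fold) and by 1.40 ± 0.092 relative to mesenchyme 1 (2.63-fold, adjusted p = 2.63e-05). The other probes fell by 1.28 ± 0.116 and 1.29 ± 0.155 relative to P0 (adjusted p = 0.000145 and 0.000481). Their readings were lower, 201 on each array of P0 against 91.2 and 75.4 on mesenchyme 2 for one probe, and 70.4 on each array of P0 against 33.7 and 24.4 for the other. With 50 added to every intensity those 2 probes stood at -0.92 and -0.61 and were no longer called. The dimmest probe lost its call already with 16 added, at -0.95. Mesenchyme 1 lay above P0 for each probe, by 0.28 ± 0.092, 0.11 ± 0.116 and 0.57 ± 0.155 (adjusted p = 0.0437, 0.462 and 0.0241), none of them 2-fold.

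Dppa5a, whose product is an RNA-binding protein of early embryos and germ cells, gave some of the highest readings on the arrays. The first of its 2 probes read 12179 and 12441 in P0, 13083 and 11787 on mesenchyme 1, and 7992 and 7388 on mesenchyme 2. The second read 12106 and 11491, then 11721 and 11420, then 6039 and 6348. P0 and mesenchyme 1 overlapped in both probes, and mesenchyme 2 lay below. The differences from P0 on mesenchyme 2 were -0.68 ± 0.0993 and -0.93 ± 0.0897 (adjusted p = 0.00114 and 0.000187), under 2-fold. The highest reading of any probe was 13011 to 15887 on the 6 arrays and only 24 probes were brighter than the dimmer of this pair, so these readings lie near the top of the scale. Whether that limits the differences was not tested.

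Lin28a, whose product binds RNA and blocks maturation of the let-7 microRNAs, was not called in any comparison. Its brighter probe read 552 and 498 in P0, 484 and 547 on mesenchyme 1, and 507 and 469 on mesenchyme 2. The second read 232 and 227, then 285 and 219, then 262 and 247. In the brighter probe all groups overlapped. On mesenchyme 2 the probes differed from P0 by -0.11 ± 0.11 (interval -0.37 to 0.16) and 0.15 ± 0.137 (interval -0.18 to 0.48), at adjusted p = 0.432 and 0.367. A 2-fold difference lay outside each interval.

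**Figure D2:**
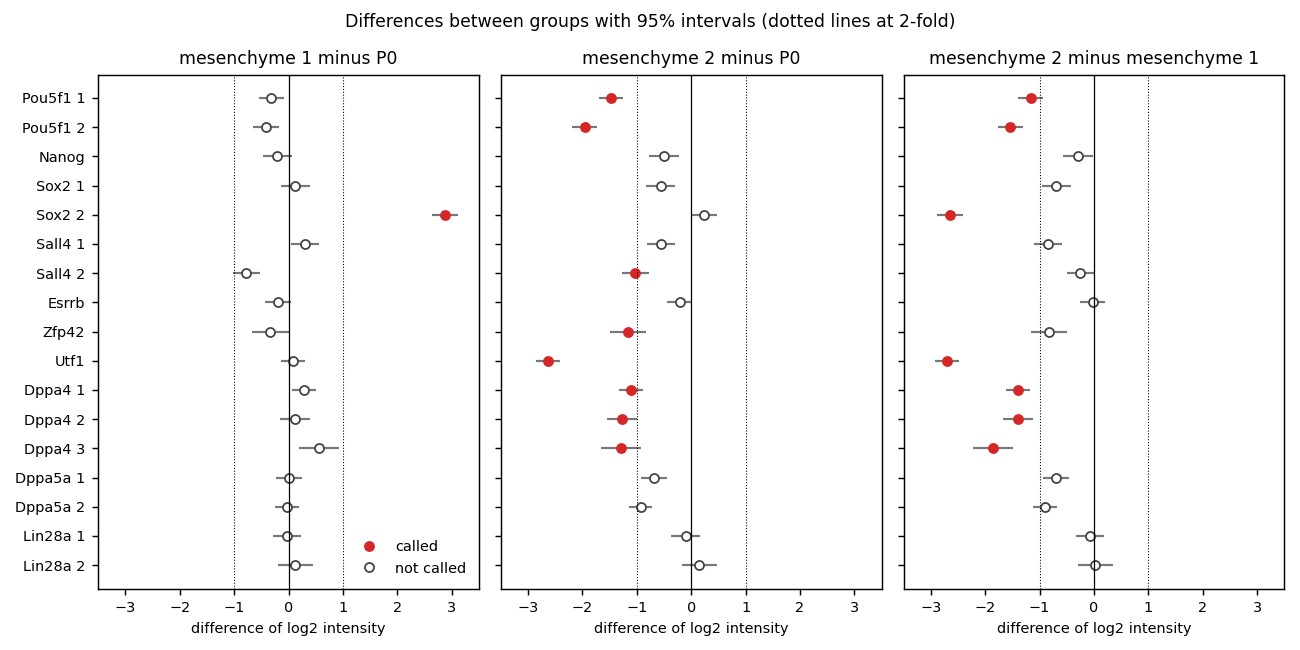
Difference of log2 intensity for the 17 probes in each pairwise comparison, with 95% intervals of the limma fit; filled red points were called, open points were not, dotted lines mark 2-fold, and numbers after a symbol rank a gene's probes by brightness. On mesenchyme 1 only the dimmer Sox2 probe lies beyond 2-fold, at 2.88, and on mesenchyme 2 the probes range from -2.63 for Utf1 to 0.23 for the dimmer Sox2 probe.

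Within the group of 10 the size of the fall on mesenchyme 2 thus varied, from 6.19-fold for Utf1 and 2.78-fold for the brighter Pou5f1 probe to 1.08-fold, not called, for the brighter Lin28a probe. By brightest probe, 4 of the 10 genes were called lower on mesenchyme 2 than in P0, namely Pou5f1, Zfp42, Utf1 and Dppa4, where 8.35% of the 7774 named genes counted in the same way were called lower and 10.3% higher. All 10 had a negative sign, beside 3771 of the 7774. Of these 4, Pou5f1, Utf1 and Dppa4 were also called lower than on mesenchyme 1, where 11.4% of named genes were lower and 14% higher. On mesenchyme 1 none of the 10 was called by brightest probe against P0 (2.89% of named genes lower, 2.59% higher), and 5 of 10 had a negative sign, with differences from -0.33 to 0.30.

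Other genes of the pluripotency network, counted by brightest probe, are given next. Of 20 measured regulators, 9 were lower and 1 higher on mesenchyme 2 than in P0 (median -0.60), beside 8.35% and 10.3% of named genes (median 0.02). Gbx2, a homeobox factor of naive stem cells, changed by -2.95 ± 0.0915 (from 478 to 62.1), the Kruppel-like factor gene Klf2 by -1.95 ± 0.12 and Jarid2, a Polycomb cofactor, by -1.76 ± 0.215. Klf4, another factor of this family, moved the other way, by 1.66 ± 0.0996 (from 388 to 1229). On mesenchyme 1, 2 regulators were higher and 1 lower than in P0 (median -0.08), beside 2.59% and 2.89% of named genes (median -0.02). Zfp281 rose by 1.10 ± 0.09 and Rex2 by 1.32 ± 0.158, and Klf4 fell by 1.35 ± 0.0996. Klf4 was thus called in opposite directions in the passaged groups, which differed by 3.01 ± 0.0996 (adjusted p = 3.15e-06).

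Of 23 further genes active in pluripotent cells, 13 were lower and 1 higher on mesenchyme 2 than in P0 (median -1.24), against the same 8.35% and 10.3% of named genes. Lefty1, an inhibitor of Nodal signalling, changed by -5.14 ± 0.103, the hormone gene Trh by -4.65 ± 0.102 and Upp1, a uridine phosphorylase, by -3.84 ± 0.115. Lifr, which encodes a receptor chain for the self-renewal cytokine LIF, rose by 1.67 ± 0.163 from a low level (16.9 to 53.6). On mesenchyme 1 only Fgf4 and Socs3 of the 23 were called, beside 2.59% of named genes higher and 2.89% lower. Fgf4, a growth factor gene known as a joint target of OCT4 and SOX2, rose from 13.5 to 131 (adjusted p = 0.000253), and Socs3, a feedback inhibitor of LIF signalling, fell by 1.52 ± 0.0994 (from 356 to 125). On mesenchyme 2 Fgf4 stood at 8.53, below its level on mesenchyme 1 (adjusted p = 1.31e-05). The P0 and mesenchyme 2 readings of Fgf4 lay under 20.2, on arrays whose lowest readings were 7.49 to 7.98, so no size is given for these differences.

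Genes of the LIN28 and let-7 pathway, which Lin28a belongs to, were counted next. Of 8 measured, none was called on mesenchyme 1, where Igf2bp1 and Igf2bp3, RNA-binding protein genes and let-7 targets, differed from P0 by 0.49 ± 0.092 and 0.11 ± 0.102. On mesenchyme 2, Tut7, a uridylyltransferase gene, rose by 1.19 ± 0.0999 and Myc fell by 1.06 ± 0.12 between very low readings (22.1 and 10.6). These 2 of 8 genes, 1 in each direction, stand beside 10.3% of named genes higher and 8.35% lower. Against mesenchyme 1, 3 of 8 were lower on mesenchyme 2 (11.4% of named genes), namely Igf2bp1 at -1.02 ± 0.092, Myc and the microRNA-processing gene Drosha at -1.04 ± 0.114. Against P0 the median of the 8 was 0.22 on mesenchyme 1 and -0.58 on mesenchyme 2.

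Of the primed epiblast genes, which mark the later pluripotent state, Pou3f1 and Dnmt3b were called in opposite directions in the passaged groups. Of 5 measured, 3 rose on mesenchyme 1 and none fell (median 1.27), and 4 fell on mesenchyme 2 and none rose (median -1.39). Of all named genes, 2.59% were called higher and 2.89% lower on mesenchyme 1, and 10.3% and 8.35% on mesenchyme 2. The POU factor gene Pou3f1 rose by 1.80 ± 0.142 on mesenchyme 1 and fell by 2.35 ± 0.142 on mesenchyme 2, with levels of 87.9 in P0, 306 and 17.3. The DNA methyltransferase gene Dnmt3b stood at 1870, 5400 and 714, a rise of 1.53 ± 0.0874 and a fall of 1.39 ± 0.0874. Sall2 rose on mesenchyme 1 by 1.27 ± 0.146 and was not called on mesenchyme 2, at -0.61 ± 0.146. Otx2, an anterior homeobox factor, fell on mesenchyme 2 by 3.64 ± 0.13 and was not called on mesenchyme 1, at 0.48 ± 0.13. Eomes, which is on the endoderm list as well, was negative in both groups, at -0.66 ± 0.109, not called, and -1.15 ± 0.109. For this state 5 of 17 listed genes were measured.

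**Figure D3:**
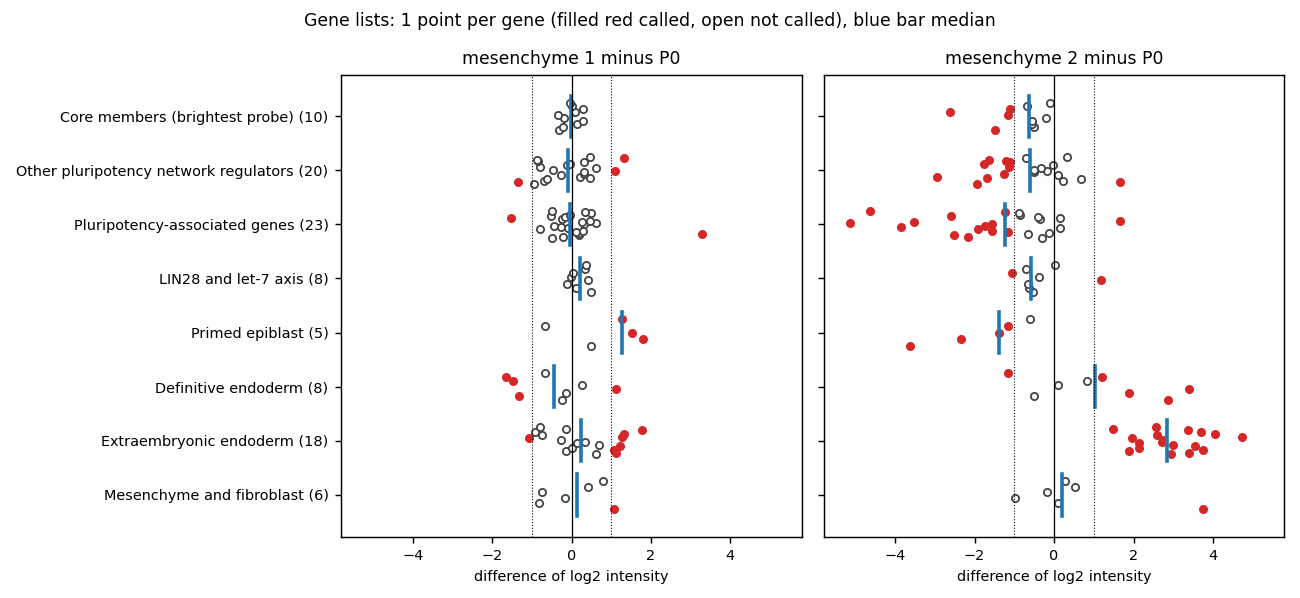
Difference of log2 intensity from P0 for each gene (brightest probe) of the core members and of 7 other lists, on mesenchyme 1 (left) and mesenchyme 2 (right); red points were called, open points were not, and blue bars are list medians. Both panels share the P0 arrays. On mesenchyme 2 the core members have a median of -0.62 and the 18 extraembryonic endoderm genes one of 2.85.

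Markers of other cell types were set beside these values. Their counts against P0 stand beside 2.59% of named genes higher and 2.89% lower on mesenchyme 1, and 10.3% and 8.35% on mesenchyme 2. Of 20 extraembryonic endoderm markers 18 were measured, and all 18 were higher on mesenchyme 2 than in P0, led by Srgn at 4.73 ± 0.098, Afp at 4.04 ± 0.16 and Pdgfra at 3.75 ± 0.101. Their summed intensity was 7750 to 7925 on the P0 arrays, 7859 to 8144 on mesenchyme 1 and 44227 to 44672 on mesenchyme 2. On mesenchyme 1, 6 of the 18 were higher, led by Amn at 1.76 ± 0.1, and Sparc fell by 1.07 ± 0.1. Of 15 mesenchyme and fibroblast markers 6 were measured, with sums of 3680 to 4085, 4740 to 5218 and 5816 to 6051. Most of each sum was Acta2, not called, at 3212 in P0, 4298 on mesenchyme 1 and 4662 on mesenchyme 2. Only Pdgfra, which is on the extraembryonic list as well, was called, at 68.5, 143 and 920 in the same order. Vim, not called, stood at 506, 451 and 256. The collagen genes Col1a1, Col1a2 and Col3a1 were on the list but had no probe under those symbols in the values used. Of 5 measured trophoblast markers 4 fell on each mesenchyme, among them Gata2 by 2.54 ± 0.205 on mesenchyme 1 and 1.22 ± 0.205 on mesenchyme 2. Of 4 measured germ cell markers Dnd1 fell on mesenchyme 2 by 2.35 ± 0.121 and Ddx4 rose on mesenchyme 1 by 1.00 ± 0.211 between readings of 16.5 and 33.1. No measured marker was listed at 0. The part of any of these cell types in the values of the pluripotency genes was not tested.

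The genes most like Pou5f1, Nanog and Sox2 were named by the root mean square difference of log2 intensity over all 6 arrays, with each gene set to 0 at its P0 mean, among 5968 named probes whose mean intensity reached 100. Nearest to Pou5f1 were Qdpr, Fbxo31, H2ac20 and Dnajc6, at 0.061 to 0.078. All 4 were called lower on mesenchyme 2, which follows from their choice by likeness to a called probe. Those nearest to Nanog were Rpf1, Ndufs4, Ebna1bp2 and Oaz2, at 0.0503 to 0.0647. The brighter Sox2 probe lay nearest to Paip2b, Gtse1, Eif2b5 and Dnajc2, at 0.04 to 0.0725. The likeness rests on 3 groups of duplicate arrays.

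**Figure D4:**
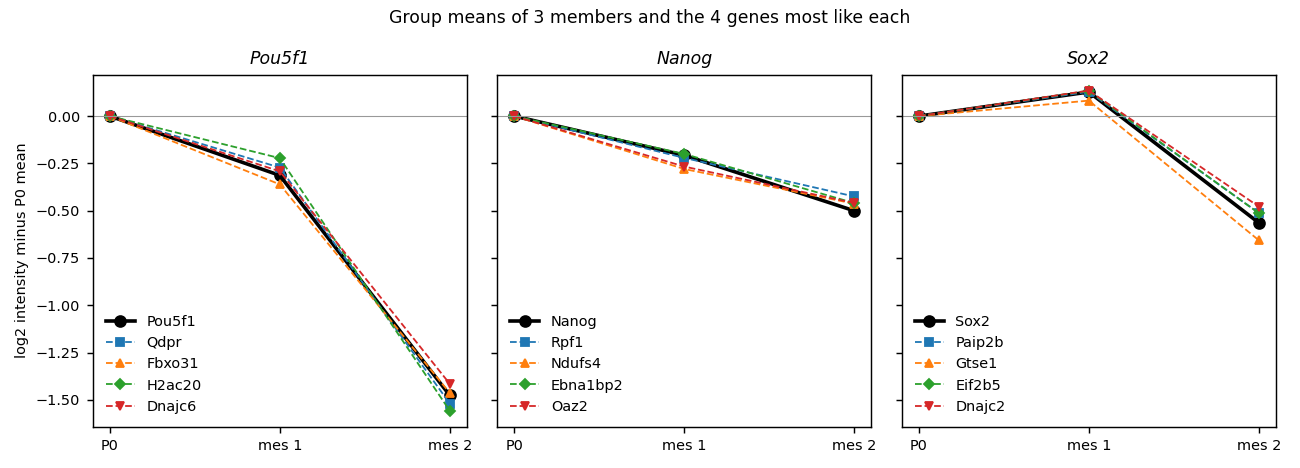
Group means of log2 intensity, set to 0 at P0, for the brightest probe of Pou5f1, Nanog and Sox2 (black) and the 4 genes most like each (dashed). The vertical axis is the difference from the P0 mean in log2 intensity; on mesenchyme 2 Pou5f1 lies at -1.48, Nanog at -0.50 and Sox2 at -0.56.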

How the data were processed

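RNA of 6 samples was labelled with Illumina TotalPrep reagents, per the labels' protocols. The values used are normalized intensities that the authors deposited on a linear scale, all of them positive. The submitters' processing notes list BeadStudio, with no version and no role. How background was corrected, how arrays were normalized and how probes were filtered is not given in the sources used here. The deposited table holds 43.2% of the 25697 probes of a scanner table. The 12 value columns of that table match no sample label and were not used, so detection above background is unknown here.

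The intensities were log2-transformed with no pseudocount or filter. A linear model with a mean for each group was fitted in limma 3.58.1 under R 4.3.3, with 3 residual and 3.70 prior degrees of freedom. Its two-sided p-values were adjusted by the Benjamini-Hochberg method across all 11097 probes within a comparison. The number of arrays limits the precision. The platform annotation gave 1 symbol for 10475 probes and none for 622, and 10471 matched a RefSeq gene table of GRCm38.p6 by Entrez identifier, with 0 symbols changed. Gene lists were counted by the probe with the highest mean level of each gene.

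The members and all gene lists were chosen with earlier results of these data known. Every member is named. From each other list up to 3 called rises and 3 called falls against P0 are named for each passaged group, or the 2 brightest genes where none was called. The genes like the dimmer Sox2 probe, and the values of Klf4, Fgf4, Igf2bp1 and Drosha against mesenchyme 1 and of Cdh1, were added after they were seen. Alternatives covered added constants, scaling, a floor on intensity, genes with several probes, the test, the replicate numbers and each array left out.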

Additional observations from a re-analysis of the deposited data

Results flagged for a closer look

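For 7 of the 17 probes the difference from P0 was unequal between the mesenchymes, by the limma test of mesenchyme 2 against mesenchyme 1. All 7 were called lower on mesenchyme 2 than on mesenchyme 1, as were 12.3% of all probes, while 13.5% were called higher. The difference of log2 intensity was -2.71 for Utf1, -2.65 for the dimmer Sox2 probe, -1.16 and -1.54 for the Pou5f1 probes, and -1.40, -1.39 and -1.86 for the Dppa4 probes, at adjusted p = 3.41e-06 to 6.78e-05. For Utf1, Pou5f1 and Dppa4 the mesenchyme 2 arrays were the low ones; for the dimmer Sox2 probe the mesenchyme 1 arrays were the high ones and mesenchyme 2 differed from P0 by 0.23. Groups of 2 arrays are too small for a test of single outlying arrays.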

How the results depend on the processing

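The single call on mesenchyme 1 against P0 (the dimmer Sox2 probe) became 0 of 10 genes by brightest probe, and 6 of 17 probes without the fold limit. On mesenchyme 2 against P0 the 8 calls became 5 with 50 added to every intensity, 3 under limma's treat test against a 2-fold change, 13 without the fold limit, and 4 of 10 genes by brightest probe or by the mean of a gene's probes. Against mesenchyme 1 the 7 calls became 3 of 10 genes by brightest probe, 4 by the mean of probes and 12 without the fold limit. Treat dropped Zfp42, all Dppa4 probes and the dimmer Sall4 probe against P0. By the mean of its probes Sox2 was called higher on mesenchyme 1.

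Signs turned only for small differences that had not been called. On mesenchyme 1 against P0, the mean of probes gave -0.24 for Sall4, -0.0075 for Dppa5a and 0.048 for Lin28a, and quantile normalization gave -0.056 for the brighter Dppa5a probe. The mean of probes gave 0.023 for Lin28a on mesenchyme 2 against P0. Between the mesenchymes, quantile normalization gave 0.0073 for Esrrb and -0.040 for the dimmer Lin28a probe, which stood at -0.057 with arrays centred on their medians. With each array left out in turn, mesenchyme 1 minus P0 ran from -0.063 to 0.088 and from -0.065 to 0.0099 for the Dppa5a probes, and from -0.12 to 0.061 and from -0.066 to 0.32 for those of Lin28a. Mesenchyme 2 minus mesenchyme 1 ran from -0.17 to 0.012 and from -0.16 to 0.22 for the Lin28a probes.

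Over all probes the 668 calls on mesenchyme 1 became 318 and 139 with 16 and 50 added, 105 under treat, 381 above a mean intensity of 50 and 5115 without the fold limit; the 2032 on mesenchyme 2 became 1348, 871, 825, 1506 and 6953 in the same order. The replicate block left 1, 8 and 7 member calls. Differences of the duplicates correlated between groups at 0.0065, -0.015 and 0.0092, so the replicate numbers do not pair the arrays. Low readings vary most: the median SD between duplicates was 0.206 in the dimmest quartile of probes and 0.0906 for the member probes. The cause of these shifts was not tested.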
